A study of Homo sapiens with 9 samples.

Results

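The genes described here encode Polycomb repressive complex 2 (PRC2): the catalytic paralogues EZH2 and EZH1, the core subunits SUZ12 and EED, and the accessory subunits JARID2, AEBP2, PHF1, MTF2, PHF19 and C17orf96 (now named EPOP). They were chosen by symbol, and all 10 listed symbols were found among the 26228 rows of the expression table. Polyadenylated RNA was sequenced in 9 libraries of Jurkat cells, an established human T-cell leukaemia line: 3 libraries of the CRISPR/Cas9-edited line EZH2-KO1, 3 of the edited line EZH2-KO2 and 3 of the unedited line, EZH2-WT. All groups grew exponentially in RPMI medium with 10% FBS and 1% Pen/Strep and received no drug or other agent named in the labels. The sources used here do not give the guides, the edited alleles or whether each edited line is 1 clone. The titles number the replicates of each line but do not say whether they are separate cultures. A p-value therefore measures the spread between libraries of 1 line and not between independent edits. The comparisons of KO1 and of KO2 with WT share their 3 WT libraries.

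PRC2 methylates lysine 27 of histone H3 and is known for keeping developmental genes silent. EZH2 or its paralogue EZH1 carries the SET domain that transfers the methyl groups, EED binds the finished mark and stimulates the enzyme, and SUZ12 is the scaffold on which the complex assembles. The core joins either one of the Polycomb-like proteins PHF1, MTF2 and PHF19, which can be accompanied by C17orf96, or JARID2 together with AEBP2. In dividing cells EZH2 is the main enzyme, whereas EZH1 is known for its place in resting and differentiated cells, and loss of PRC2 function by mutation of EZH2, SUZ12 or EED recurs in T-cell acute lymphoblastic leukaemia.

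No unit is named beside the values, which were read as FPKM (fragment counts scaled by transcript length and library size). On that reading they are scaled by length and can be compared between genes. Library sums ran from 417737 to 421229 FPKM in KO1, from 430433 to 439704 in KO2 and from 432939 to 439031 in WT. The depth in reads is unknown; judged from the step sizes of low values, depths relative to WT replicate 3 spanned 0.964 to 1.16, and WT replicate 1 was deepest. The defining T-cell transcripts were present in every group, with CD3D, a chain of the CD3 complex, at means of 402 FPKM in KO1, 491 in KO2 and 493 in WT, and all 11 listed T-cell markers were tested. Of these, 3 were higher and 8 lower in KO1 than in WT, where 67.5% of all tested genes were called (35.6% higher and 31.9% lower). In KO2, 3 were higher and 5 lower, where 64.7% of all tested genes were called (38.1% higher and 26.6% lower). Among the markers, CD28, a costimulatory receptor, averaged 7.73 FPKM in KO1 and 13.5 in KO2, against 35.4 in WT. CD2, an adhesion receptor, averaged 90.6 FPKM in KO1 and 4.38 in KO2, against 35.8 in WT. The summed level of the 11 markers was 1350 to 1500 FPKM in KO1, 1580 to 1620 in KO2 and 1580 to 1690 in WT. Markers of other cell types were at or near 0: all 5 myeloid markers, 4 of 5 epithelial and fibroblast markers and 4 of 5 B-cell markers stayed below 1 FPKM in every library, and PAX5 was listed at 0 throughout. The exceptions were COL1A1, a collagen gene, at 1.56, 1.41 and 0.471 FPKM in KO1, KO2 and WT, and CD79A, a B-cell receptor chain gene, at 54.9, 21.0 and 27.5 FPKM. What part these marker differences have in the results on PRC2 was not tested.

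The promoters of the catalytic paralogues are shown because EZH2 and EZH1 moved in opposite directions in both edited lines. Promoter windows from RefSeq (GRCh38.p14, 250 bases before to 50 after an annotated start) were found for 9 of the 10 genes, 12 windows in all; C17orf96 was the exception. Both strands were searched for the E2F letters TTTGGCGC and TTTCGCGC, for CCAAT and for the E-box CACGTG. E2F factors drive genes of the cell division cycle, CCAAT is bound by NF-Y, and the E-box is bound by MYC with MAX. The first EZH2 window held 4 CCAAT matches, at bases 94, 66, 47 and 13 before the start, which 0.991% of all 35116 windows reach. It also held TTTGGCGC beginning at base 2 of the transcript, and 1.15% of all windows hold either E2F form. The EZH1 window and the second EZH2 window held none of these letters. The EZH2 sequence lies at chr7:148884292-148884541 and the EZH1 sequence at chr17:42745041-42745290, both on the minus strand and written 5′ to 3′, with CCAAT or its reverse complement in capitals. The short EZH2 stretch at chr7:148884272-148884301 spans the start; its capitals mark the E2F letters and the end of the last CCAAT match.
EZH2 before the start: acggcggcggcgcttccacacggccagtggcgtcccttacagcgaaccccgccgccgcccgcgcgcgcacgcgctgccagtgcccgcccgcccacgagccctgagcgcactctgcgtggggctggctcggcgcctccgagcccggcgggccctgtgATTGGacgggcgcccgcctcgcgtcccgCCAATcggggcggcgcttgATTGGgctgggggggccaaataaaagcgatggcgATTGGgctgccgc
EZH2 around the start: GGgctgccgcgTTTGGCGCtcggtccggtc
EZH1 before the start: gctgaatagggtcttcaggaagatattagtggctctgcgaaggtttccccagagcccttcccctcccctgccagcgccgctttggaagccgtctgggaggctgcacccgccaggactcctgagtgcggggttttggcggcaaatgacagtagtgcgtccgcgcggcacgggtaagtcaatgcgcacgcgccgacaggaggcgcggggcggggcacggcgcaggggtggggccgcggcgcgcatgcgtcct
Single CCAAT matches occurred in the windows of SUZ12 and EED, in the first JARID2 window but not the second, and in both windows of PHF19. Of all windows, 34.6% hold at least 1. Like the EZH1 window, those of AEBP2, PHF1 and MTF2 held none of the letters searched. No window of the 9 genes held the E-box, which 7.26% of all windows hold. These matches describe letters in the windows, and binding was not measured.

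The 10 transcripts did not move as a block. In KO1 the EZH2 and C17orf96 transcripts rose against WT, while EZH1, PHF1, MTF2, PHF19 and JARID2 fell, and in KO2 the same 2 genes rose and the same 5 fell. SUZ12, EED and AEBP2 did not pass in either line. Differences were tested with limma on log2(FPKM + 1), fitted to the 11737 genes with at least 1 FPKM in 3 or more libraries, and called at a Benjamini-Hochberg adjusted p under 0.05 over all of them. All 10 members passed that filter. The 7 members called are 70.0% of the 10 in each line, against 67.5% of all tested genes in KO1 (35.6% higher and 31.9% lower) and 64.7% in KO2 (38.1% higher and 26.6% lower), so the number called is near the background. KO1 libraries did not overlap WT libraries for 8 members, against 68.6% of all tested genes, and KO2 libraries did not for 7, against 69.2%. The share of tested genes called in the same direction in both lines was 52.4%, and 7 of the 10 members were. All 6 edited libraries lay on one side of all 3 WT libraries for 7 of the 10 members, against 54.5% of all tested genes. The median log2 fold change of the 10 members was -0.05 in KO1 and -0.08 in KO2, against 0.02 and 0.06 over all tested genes.

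**Figure D1:**
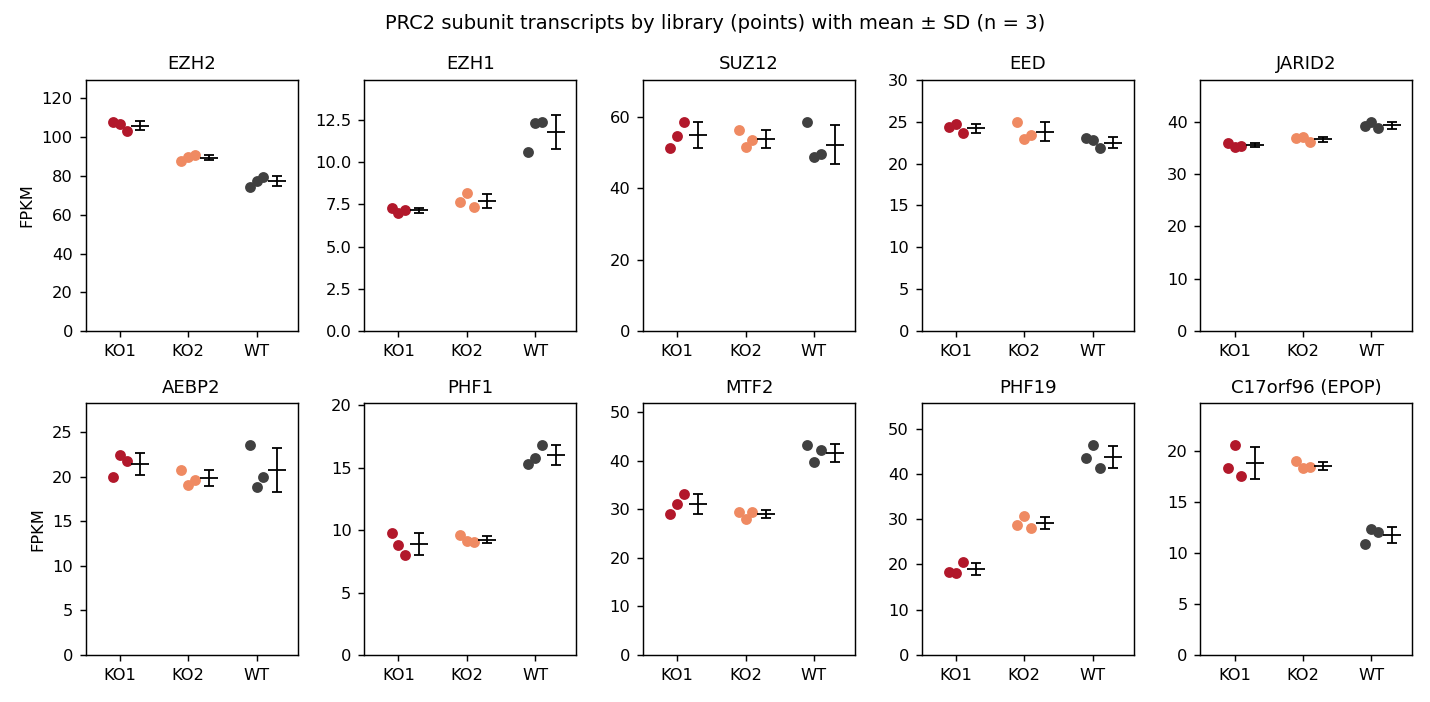
Level of each of the 10 PRC2 subunit transcripts in FPKM (vertical axes, each from 0) in the 3 libraries of KO1, KO2 and WT (points), with the mean ± SD beside them (n = 3). EZH2 and C17orf96 sit higher in both edited lines than in WT, EZH1, PHF1, MTF2 and PHF19 sit lower, and SUZ12 and AEBP2 overlap between all groups.

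EZH2 was the most abundant of the 10 transcripts in every library of all groups. It stood at 108, 107 and 103 FPKM in the KO1 libraries and at 87.9, 89.9 and 90.7 in the KO2 libraries, against 74.4, 77.6 and 79.5 in the WT libraries. The groups did not overlap, and KO1 was the highest. In KO1 EZH2 rose by 37.2% of the WT mean (log2 fold change 0.45 ± 0.04 SE, limma adjusted p = 1.64e-06) and by 16.0% in KO2 (0.21 ± 0.04, limma adjusted p = 0.000541). KO2 was lower than KO1 by a log2 difference of -0.24 ± 0.04 (limma adjusted p = 0.000844). In KO1 32.7% of tested genes changed by more than EZH2 in absolute log2 terms, and in KO2 59.6% did. An FPKM value sums over a whole transcript and does not show which bases were edited. As the edited alleles are not given, the EZH2 level is no check of the labels. EZH2 protein was not measured here.

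EZH1 moved the other way. It was at 7.28, 7.0 and 7.19 FPKM in KO1 and at 7.62, 8.15 and 7.37 in KO2, against 10.6, 12.3 and 12.4 in WT. Every edited library was below every WT library. EZH1 fell, with a log2 fold change of -0.64 ± 0.07 in KO1 (limma adjusted p = 1.17e-05) and of -0.55 ± 0.07 in KO2 (limma adjusted p = 4.58e-05). All KO1 libraries were below all KO2 libraries, but that difference did not pass (0.09, 95% interval -0.06 to 0.25, limma adjusted p = 0.325). EZH1 made up 6.34%, 6.14% and 6.52% of the summed EZH1 and EZH2 FPKM in KO1 and 7.98%, 8.32% and 7.52% in KO2, against 12.5%, 13.6% and 13.5% in WT. The mean share differed from WT by -6.88 points in KO1 and by -5.27 points in KO2. Each difference had p = 0.1 in an exact two-sided permutation test, the smallest p that 3 against 3 libraries can give (0.12 adjusted over the 6 comparisons of shares made). These are shares of transcript and not of protein, and in bulk RNA fewer cells of a type and less RNA per cell cannot be told apart.

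Neither core subunit passed the test in either line. SUZ12 was at 51.3, 54.6 and 58.6 FPKM in KO1 and at 56.4, 51.4 and 53.4 in KO2, against 58.5, 48.6 and 49.5 in WT. WT replicate 1 was level with the highest edited library, and the groups overlapped. Log2 fold changes were 0.07 in KO1 (95% interval -0.09 to 0.24, limma adjusted p = 0.395) and 0.05 in KO2 (-0.12 to 0.21, limma adjusted p = 0.604). SUZ12 passed in KO1 without WT replicate 1 (0.16, limma adjusted p = 0.0382, against 0.0382 to 0.796 over all alternatives). Its near-identical copy SUZ12P1, a pseudogene, averaged 12.8 FPKM in KO1 and 11.5 in KO2, against 14.7 in WT, and the sources used here do not say how reads were shared between the copies, so the SUZ12 level is uncertain. EED, the reader of the mark, was at 24.4, 24.7 and 23.6 FPKM in KO1 and at 25.0, 22.9 and 23.4 in KO2, against 23.1, 22.8 and 21.8 in WT. The KO1 libraries lay above the WT libraries and the KO2 libraries overlapped them. EED did not pass in KO1 (0.10, 95% interval -0.01 to 0.21, limma adjusted p = 0.0920) or in KO2 (0.07, -0.03 to 0.18, limma adjusted p = 0.205).

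JARID2, a DNA- and nucleosome-binding partner that helps recruit the complex, fell slightly. It was at 35.9, 35.1 and 35.3 FPKM in KO1 and at 36.8, 37.0 and 36.1 in KO2, against 39.1, 40.0 and 38.7 in WT. The edited libraries all lay below the WT libraries. The log2 fold change was -0.14 ± 0.04 in KO1 (limma adjusted p = 0.00479) and -0.10 ± 0.04 in KO2 (limma adjusted p = 0.0341), and 74.1% of tested genes in KO1 and 80.2% in KO2 changed by more. The KO2 call was lost without KO2 replicate 1, 2 or 3, WT replicate 2 or KO1 replicate 2 (adjusted p = 0.0746, 0.0615, 0.107, 0.109 and 0.0519). AEBP2, a zinc finger protein that joins JARID2 in the complex, was at 20.0, 22.4 and 21.7 FPKM in KO1 and at 20.7, 19.0 and 19.6 in KO2, against 23.5, 18.8 and 19.9 in WT. WT spanned the range of both edited lines, as WT replicate 1 was the highest library and WT replicate 2 the lowest. Its log2 fold change was 0.05 in KO1 (95% interval -0.13 to 0.22, limma adjusted p = 0.622) and -0.06 in KO2 (-0.23 to 0.11, limma adjusted p = 0.520).

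The 3 Polycomb-like genes, whose proteins bind unmethylated CpG-rich DNA and recruit PRC2, fell in both lines. PHF19 fell furthest of the 10 members in KO1. It was at 18.4, 18.1 and 20.5 FPKM in KO1 and at 28.8, 30.7 and 28.1 in KO2, against 43.6, 46.3 and 41.3 in WT. The groups did not overlap, and KO2 lay between the others. The log2 fold change was -1.16 ± 0.06 in KO1 (limma adjusted p = 5.19e-08) and -0.57 ± 0.06 in KO2 (limma adjusted p = 1.52e-05), and 6.41% of tested genes changed by more in KO1. KO2 was higher than KO1 (0.60 ± 0.06, limma adjusted p = 5.64e-05), and 4.46% of tested genes differed by more between the edited lines.

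PHF1 was at 9.76, 8.83 and 8.03 FPKM in KO1 and at 9.60, 9.14 and 9.02 in KO2, against 15.3, 15.8 and 16.8 in WT. Its level in the edited lines overlapped, and both lay far below WT. PHF1 fell by a log2 fold change of -0.78 ± 0.07 in KO1 (limma adjusted p = 3.05e-06) and of -0.73 ± 0.07 in KO2 (limma adjusted p = 6.9e-06), which was the furthest fall among the 10 members in KO2. CUTA, a gene on the opposite strand, shares 12 exon bases with PHF1 in GENCODE (GRCh38), and it rose to 101 FPKM in KO1 (0.39 ± 0.05, limma adjusted p = 9.77e-05) and 109 FPKM in KO2 (0.49 ± 0.05, limma adjusted p = 1.89e-05), against 77.1 in WT. MTF2 was at 29.1, 31.2 and 33.2 FPKM in KO1 and at 29.5, 28.1 and 29.4 in KO2, against 43.2, 39.7 and 42.3 in WT. Every edited library was below every WT library. MTF2 fell in KO1 (-0.41 ± 0.05, limma adjusted p = 6.21e-05) and in KO2 (-0.51 ± 0.05, limma adjusted p = 1.52e-05). Neither PHF1 (0.06, 95% interval -0.10 to 0.21) nor MTF2 (-0.10, -0.22 to 0.02) passed between KO2 and KO1 (limma adjusted p = 0.571 and 0.206).

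C17orf96, whose protein binds elongin BC and joins the Polycomb-like form of the complex, rose while its partners fell. It was at 18.4, 20.6 and 17.6 FPKM in KO1 and at 19.1, 18.4 and 18.5 in KO2, against 10.9, 12.4 and 12.1 in WT. The edited lines overlapped each other, and both lay above WT. C17orf96 rose by 59.9% of the WT mean in KO1 (log2 fold change 0.63 ± 0.07, limma adjusted p = 1.12e-05) and by 57.8% in KO2 (0.62 ± 0.07, limma adjusted p = 1.62e-05). Its difference between KO2 and KO1 was -0.01 (95% interval -0.16 to 0.13, limma adjusted p = 0.892).

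**Figure D2:**
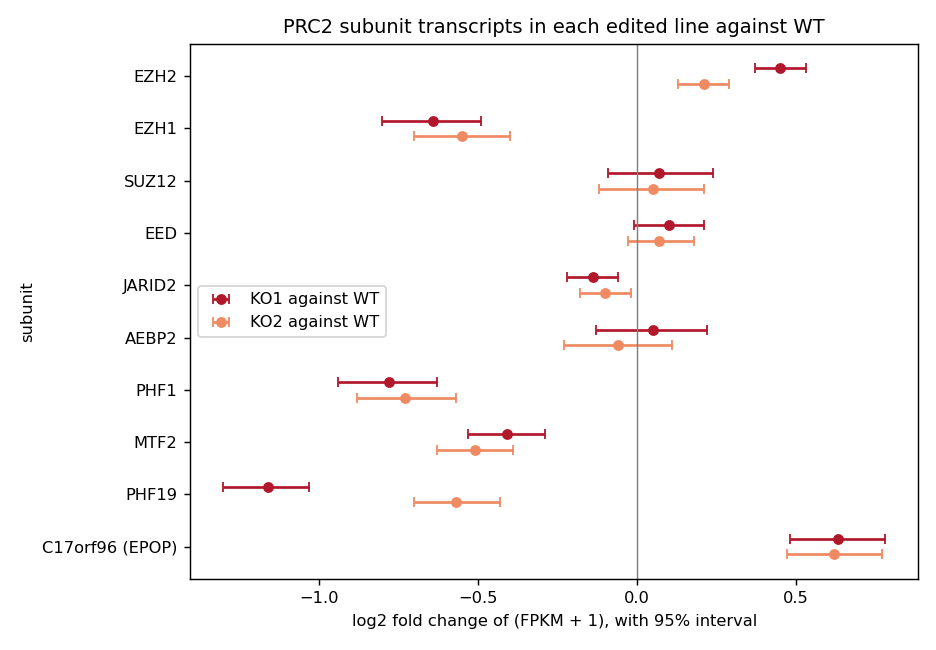
Log2 fold change of FPKM + 1 (horizontal axis) of each PRC2 subunit transcript in KO1 and in KO2 against WT, with 95% intervals of the limma fit to 9 libraries. EZH2 (0.45 and 0.21) and C17orf96 (0.63 and 0.62) lie right of 0, PHF19 (-1.16 and -0.57), PHF1, EZH1, MTF2 and JARID2 lie left, and the intervals of SUZ12, EED and AEBP2 include 0.

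Between KO2 and KO1, EZH2 and PHF19 were called, 2 of the 10 members (20.0%), against 30.6% of all tested genes (18.3% higher and 12.4% lower). EZH2 was lower and PHF19 higher in KO2. The libraries of KO2 and KO1 did not overlap for 4 members, the 2 called and EZH1 and JARID2, against 47.4% of tested genes. For the other 8 members the difference did not pass, with log2 differences from -0.11 for AEBP2 to 0.09 for EZH1.

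Among the accessory transcripts the Polycomb-like genes held a smaller share in every edited library than in every WT library. JARID2 plus AEBP2 made up 49.4%, 49.8% and 48.0% of the summed FPKM of JARID2, AEBP2, PHF1, MTF2 and PHF19 in KO1 and 45.8%, 45.2% and 45.5% in KO2, against 38.0%, 36.6% and 36.8% in WT. The groups did not overlap, and the mean share was higher by 11.9 points in KO1 and by 8.36 points in KO2 (p = 0.1 each, exact two-sided permutation test, the smallest p possible; 0.12 adjusted over 6). PHF19 made up 32.2% ± 1.05 of the summed Polycomb-like FPKM in KO1, against 43.1% ± 2.2 in WT (SD, n = 3 each; difference -10.9 points, exact permutation p = 0.1, 0.12 adjusted). In KO2 its share was 43.3% ± 1.65, a difference of 0.161 points from WT (exact permutation p = 1.0). That small difference changed sign without KO2 replicate 2, WT replicate 1 or WT replicate 3 (-0.789, -0.0356 and -0.828 points). The 10 members together summed to 322 to 329 FPKM in KO1 and 315 to 322 in KO2, against 334 to 342 in WT.

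**Figure D3:**
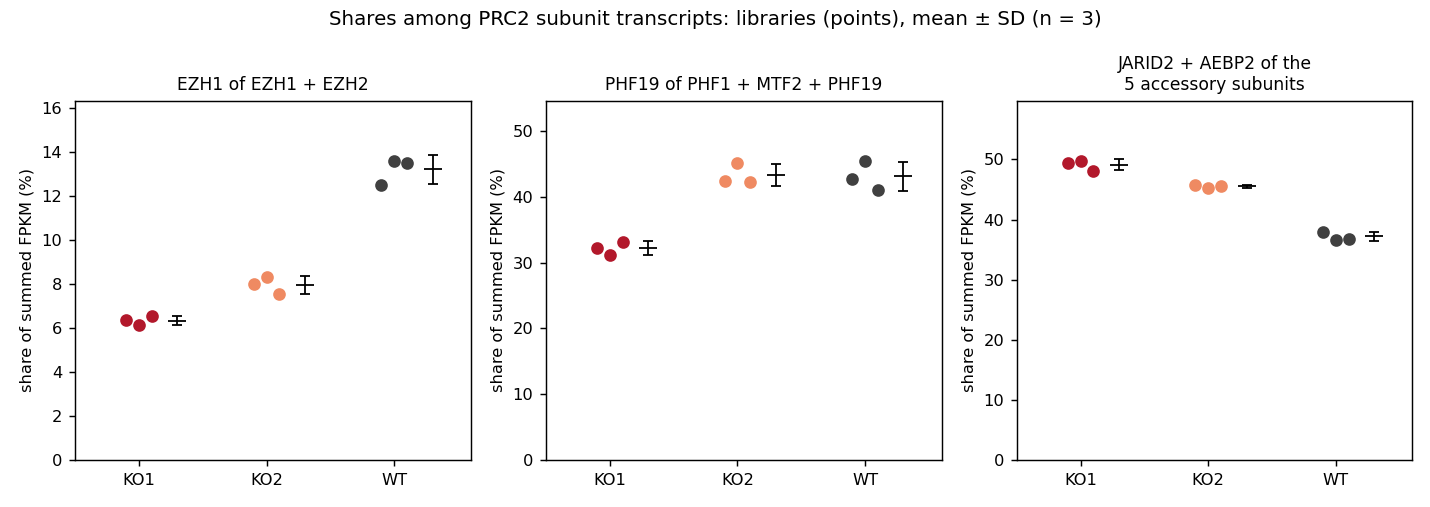
Share of summed FPKM in percent (vertical axes, from 0) for EZH1 among the catalytic paralogues, for PHF19 among the Polycomb-like genes and for JARID2 plus AEBP2 among 5 accessory subunits, in the 3 libraries of KO1, KO2 and WT (points) with mean ± SD (n = 3). The EZH1 share is lower and the JARID2 plus AEBP2 share higher in both edited lines, and the PHF19 share averages 32.2% in KO1, against 43.3% in KO2 and 43.1% in WT.

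The order of the levels differed between groups below the top. In every group EZH2 came first and SUZ12 second, and their ranges over 3 libraries did not overlap. In KO1 the order continued with JARID2, MTF2, EED, AEBP2, PHF19, C17orf96, PHF1 and EZH1, and in KO2 with JARID2, PHF19, MTF2, EED, AEBP2, C17orf96, PHF1 and EZH1. WT had PHF19, MTF2, JARID2, EED, AEBP2, PHF1, C17orf96 and EZH1. PHF19 thus held rank 7 in KO1 and rank 4 in KO2, against rank 3 in WT. Neighbours whose ranges overlapped were AEBP2 with PHF19 and PHF19 with C17orf96 in KO1, and PHF19 with MTF2 and AEBP2 with C17orf96 in KO2. In WT they were PHF19 with MTF2, MTF2 with JARID2, EED with AEBP2, and C17orf96 with EZH1.

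The genes next to each member in RefSeq gene order were set beside it, with 98.6% of tested genes placed. The fall of PHF19, on chromosome 9, was shared by the tested genes nearest to it. The 6 nearest tested genes were PSMD5-AS1, PSMD5 and FBXW2 on one side and TRAF1, CNTRL and RAB14 on the other. All but TRAF1, which is treated apart below, fell by -0.81 to -0.50 in KO1 and -0.35 to -0.24 in KO2 (log2 fold changes). PHF19 fell further than each of these 5, and all 5 were higher in KO2 than in KO1. RAB14, a vesicle transport gene, was at 25.1 ± 0.65 FPKM in KO1 and 34.1 ± 0.603 in KO2, against 43.9 ± 2.99 in WT (SD, n = 3 each). TRAF1, an adaptor of tumour necrosis factor receptors, was at 0.495 ± 0.192 FPKM in KO1 and 0.748 ± 0.0888 in KO2, against 2.63 ± 0.16 in WT. TRAF1 reached 1 FPKM only in WT libraries and passed the filter only through them. Its fall is therefore no separate sign of a shared fall, and it stays in the counts over 20 genes. Over the 10 tested genes on each side of PHF19, KO1 had 13 of 20 lower and 3 higher, with a median of -0.36. KO2 had 8 lower and 6 higher, with a median of 0.02. Of all tested genes, 31.9% were lower and 35.6% higher in KO1, and 26.6% and 38.1% in KO2. Between KO2 and KO1, 15 of the 20 neighbours were higher and 2 lower, against 18.3% and 12.4% of all tested genes. The neighbour median there was 0.38, beside the 0.60 of PHF19 itself. PHF19 had a larger fall than the neighbour median in both lines, and the part of its neighbourhood in its change was not tested.

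**Figure D4:**
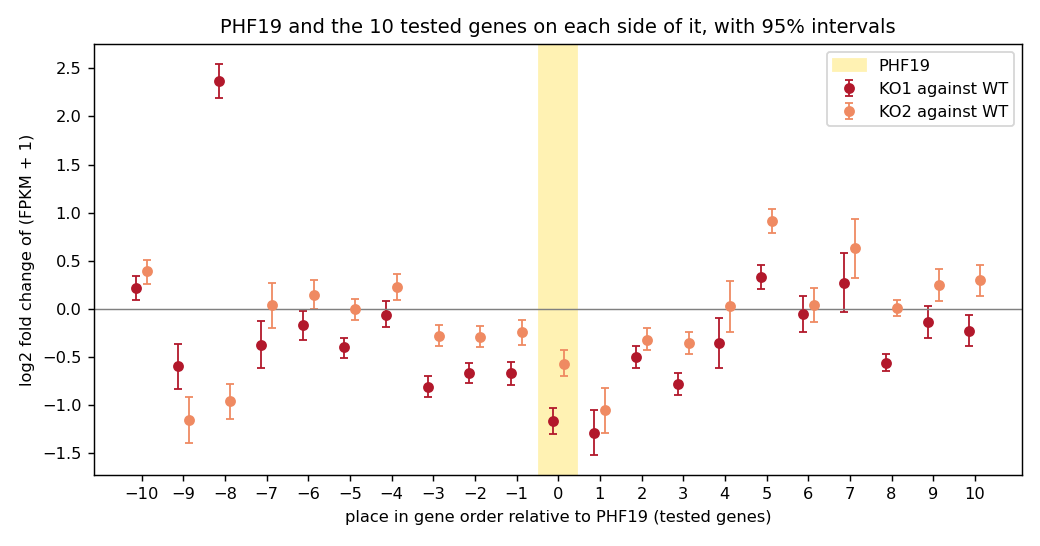
Log2 fold change of FPKM + 1 with 95% intervals (vertical axis) in KO1 and KO2 against WT for PHF19 and the 10 tested genes on each side of it in RefSeq gene order (horizontal axis, places from PHF19). The 3 nearest genes on each side lie below 0 in both lines, and beyond them KO1 values are mostly below the KO2 values. Among the nearest, TRAF1 passed the filter only through its WT libraries.

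Neighbour medians were also taken around the other members. MTF2, on chromosome 1, lay among genes of which 11 of 20 rose and 3 fell in KO1 (median 0.24). In KO2, 10 rose and 3 fell (median 0.24). Of all tested genes, 35.6% were higher and 31.9% lower in KO1, and 38.1% and 26.6% in KO2. FAM69A, next to MTF2, also fell, to 12.9 FPKM in KO1 and 12.0 in KO2, against 20.2 in WT. TMED5, on the other side of MTF2, did not pass in either line (limma adjusted p = 0.92 in KO1 and 0.836 in KO2). JARID2 had neighbours with medians of 0.30 in KO1 and 0.25 in KO2, among them DTNBP1 and CD83, which rose. The medians around EZH1 were -0.05 in KO1 and 0.13 in KO2, and those around PHF1 were -0.12 and 0.01. TUBG2, next to EZH1, fell in KO1 and KO2 (-0.84 and -0.42, limma adjusted p = 1.01e-05 and 0.00163). RAMP2, on the other side of EZH1, passed the filter only through edited libraries. KIFC1, next to PHF1, fell (-0.62 and -0.49, limma adjusted p = 1.06e-07 and 7.54e-07), and CUTA on its other side rose. What part these neighbours have in either fall was not tested. Of the members that rose, EZH2, on chromosome 7, had neighbour medians of -0.11 in KO1 and 0.08 in KO2, and C17orf96 had 0.05 and 0.21. The genes flanking EZH2 both rose. CUL1, a scaffold of ubiquitin ligases, stood at 48.9 ± 3.46 FPKM in KO1 and 78.5 ± 2.63 in KO2, against 39.2 ± 4.24 in WT, so KO2 was the higher line there (0.67 ± 0.07 between KO2 and KO1, limma adjusted p = 8.54e-05). PDIA4, a chaperone of the endoplasmic reticulum, stood at 74.5 and 78.0 FPKM in KO1 and KO2, against 58.4 in WT.

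Transcripts with a pattern most like that of a catalytic paralogue were ranked by the root mean square difference of log2(FPKM + 1), centred on each gene's mean over the 9 libraries. Candidates had to pass in both lines in the same direction, which 3518 genes did for EZH2 and 2615 for EZH1. The closest to EZH2 were LDOC1L, FAM57A and CTNNB1, which encodes beta-catenin, at differences of 0.0370, 0.0401 and 0.0435. CTNNB1 stood at 57.9 ± 1.41 FPKM in KO1 and 49.4 ± 1.15 in KO2, against 43.2 ± 0.806 in WT (SD, n = 3 each). The closest to EZH1 were TP53INP2, GTPBP1 and AKAP8L, at 0.0475, 0.0527 and 0.0533. AKAP8L stood at 28.6 ± 1.24 FPKM in KO1 and 30.2 ± 2.18 in KO2, against 45.5 ± 2.33 in WT.

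Of 5 further listed components of the complex, 4 were tested. CXorf67, which encodes the PRC2 inhibitor EZHIP, stayed below 1 FPKM in every library. RBBP7 and RBBP4, the histone-binding subunits that PRC2 shares with other complexes, fell in both lines. RBBP7 stood at 98.2, 98.3 and 108 FPKM in KO1 and at 118, 124 and 118 in KO2, against 163, 152 and 144 in WT. The groups did not overlap. Its log2 fold change was -0.59 ± 0.05 in KO1 (limma adjusted p = 3e-06) and -0.35 ± 0.05 in KO2 (limma adjusted p = 0.000188), and KO2 was higher than KO1 (0.24, limma adjusted p = 0.00599). RBBP4 fell less, to 111 FPKM in KO1 and 113 in KO2, against 124 in WT (-0.16 and -0.13, limma adjusted p = 0.0168 and 0.0357). LCORL, a paralogue of the PRC2-binding LCOR, fell to 15.9 FPKM in KO1 and 13.2 in KO2, against 20.0 in WT (-0.31 and -0.56, limma adjusted p = 0.0149 and 0.000432). Of these 4 genes, LCOR alone was higher in KO1, at 5.81 FPKM against 5.08 in WT, and it did not pass in KO2. The other 3 were lower in both lines, where 31.9% of all tested genes were lower in KO1 and 26.6% in KO2. The median over all 4 was -0.23 in KO1 and -0.24 in KO2, against 0.02 and 0.06 over all tested genes.

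PRC1, the partner complex that ubiquitinates histone H2A and binds the PRC2 mark, was described by the same counts. Of 21 tested PRC1 genes, 10 were higher and 5 lower in KO1, against 11 and 5 in KO2, where 35.6% of all tested genes were higher and 31.9% lower in KO1 and 38.1% and 26.6% in KO2. The median log2 fold changes of the list were 0.18 in KO1 and 0.24 in KO2, against 0.02 and 0.06 over all tested genes, and the PRC2 members had 2 higher and 5 lower in each line. No test of the difference between these lists was run. BMI1, a core PRC1 subunit, rose to 90.5 ± 10.8 FPKM in KO1 and 72.0 ± 6.53 in KO2, against 39.3 ± 2.41 in WT (1.18 and 0.86, limma adjusted p = 8.17e-07 and 1.2e-05). CBX6 and CBX2, chromodomain subunits of PRC1, rose, to 17.3 and 17.1 FPKM in KO1 and to 17.7 and 19.6 in KO2, against 10.2 and 10.8 in WT.

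Both demethylases that remove the PRC2 mark fell in both lines. KDM6B, an H3K27 demethylase, fell to 7.46 ± 0.48 FPKM in KO1 and 8.48 ± 0.225 in KO2, against 17.7 ± 1.01 in WT (-1.14 and -0.98, limma adjusted p = 7.27e-08 and 3.24e-07). KDM6A, the other demethylase listed, fell to 5.63 ± 0.19 FPKM in KO1 and 7.69 ± 0.204 in KO2, against 10.5 ± 0.773 in WT (-0.79 and -0.40, limma adjusted p = 1.23e-06 and 0.000239). CREBBP, an acetyltransferase of the same residue, rose to 10.9 and 11.2 FPKM in KO1 and KO2, against 7.86 in WT (0.43 and 0.47, limma adjusted p = 0.00041 and 0.000277). Of the 4 genes listed for this role, 1 rose and 2 fell in each line. Of all tested genes, 35.6% were higher and 31.9% lower in KO1, and 38.1% and 26.6% in KO2. Of 3 genes for removal of H2A ubiquitin, ASXL2 and ASXL1 fell in both lines and BAP1, the enzyme, did not pass in either (limma adjusted p = 0.189 in KO1 and 0.436 in KO2).

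The E2F and RB family, known regulators of EZH2 transcription, had 13 genes tested. In KO1 7 were higher and 2 lower, where 67.5% of all tested genes were called (35.6% higher and 31.9% lower). In KO2 7 were higher and 3 lower, where 64.7% of all tested genes were called (38.1% higher and 26.6% lower). The family median was 0.19 in both lines, against 0.02 and 0.06 over all tested genes. TFDP1, a dimer partner of E2F proteins, stood at 119, 122 and 122 FPKM in KO1 and at 120, 119 and 125 in KO2, against 83.5, 85.9 and 81.1 in WT. Both lines lay above WT by the same amount (0.53 ± 0.04, limma adjusted p = 4.03e-07 in KO1 and 5.04e-07 in KO2). E2F6, a repressive E2F, rose to 9.53 FPKM in KO1 and 9.68 in KO2, against 5.35 in WT (0.73 and 0.75, limma adjusted p = 9.59e-07 and 1.04e-06). RBL2, an RB family repressor that is high in resting cells, fell to 22.1 FPKM in KO1 and 25.5 in KO2, against 35.1 in WT (-0.64 and -0.44, limma adjusted p = 1.14e-06 and 2.35e-05). What part the E2F and RB family has in the EZH2 levels was not tested.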

How the data were processed

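RNA of Jurkat cells was extracted from growing cultures and made into mRNA libraries, per the labels' protocols. The authors deposited values per gene symbol and library without a named unit, and these were read as FPKM. The submitters' processing notes name STAR 2.5.0b, Cufflinks 2.2.1, bedtools 2.7.0 and hg19 but no role or order. The sources used here give neither the annotation nor strandedness nor any scaling of libraries, so overlapping genes and near-identical copies are uncertain. Of 26228 rows, 38 contained text among their values and were dropped, and 28 with date-like or repeated names stayed in the fit unnamed. Groups and replicate numbers came from the sample titles.

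The 11737 genes that reached 1 FPKM in at least 3 of 9 libraries were fitted on log2(FPKM + 1) with limma 3.58.1 in R 4.3.3, 1 mean per group, with a mean-variance trend and Benjamini-Hochberg adjustment over all tested genes; this scale understates changes of weakly expressed genes. The fit was also run on simulated data with independent noise, in which far fewer genes changed than were called here, and in KO1 alone. That run cannot show how the fit behaves when most genes change. Shares of FPKM were compared with exact permutation tests (scipy 1.17.1). RefSeq tables of GRCh38.p14 gave gene order and promoter windows, and GENCODE gave overlapping genes.

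The members, lists and shares were chosen with earlier results of these data known. Named genes were all members, up to 3 genes per other list with the smallest larger p of both comparisons with WT, the nearest tested genes (3 on each side for PHF19) and the 3 transcripts most like EZH2 and EZH1. CD5 and the nearest genes of SUZ12, EED, AEBP2 and C17orf96 fell under this rule but are not described. CD3D, PAX5, CXorf67, LCOR and SUZ12P1 were named outside this rule after their values were seen. Alternatives were other filters (none, 5 FPKM), pseudocounts (0.1, 0.5), scalings and moderations, fits of 2 groups, a replicate block, and leaving out each library. Within groups, Pearson correlations across tested genes were 0.989 to 0.994, and 0 pairs of libraries were identical.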

Additional observations from a re-analysis of the deposited data

Results flagged for a closer look

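EZH2 and PHF19 had effects of different size in the edited lines, by the test of KO2 against KO1. EZH2 averaged 89.5 FPKM in KO2, against 106 in KO1 (log2 difference -0.24 ± 0.04, limma adjusted p = 0.000844), and every KO2 library was below every KO1 library. PHF19 averaged 29.2 FPKM in KO2, against 19.0 in KO1 (0.60 ± 0.06, limma adjusted p = 5.64e-05), and every KO2 library was above every KO1 library. Both calls held in all 19 alternatives. Neighbouring genes of PHF19 differed in the same direction, with a median of 0.38 over 20 genes, while those of EZH2 had a median of 0.17, opposite to EZH2. What part these neighbourhoods have in either difference was not tested.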

How the results depend on the processing

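Of 570 values for members (30 comparisons under 19 alternatives), 553 kept their direction and call, 8 lost the call, 1 gained it and 8 changed sign. Calls lost were all of JARID2 in KO2, also with no trend, with only the 2 groups compared and with the replicate block (limma adjusted p = 0.0561, 0.058 and 0.0697; 0.0064 to 0.109 over all alternatives). Sign changes came from leaving out 1 library, for uncalled values: AEBP2 ranged from -0.02 to 0.14 in KO1 and from -0.12 to 0.03 in KO2, and SUZ12 from 0.00 to 0.13 in KO2. Between KO2 and KO1, C17orf96 ranged from -0.06 to 0.05, SUZ12 from -0.07 to 0.02, PHF1 from -0.01 to 0.12 and EED from -0.06 to 0.00. The PHF19 share in KO2 minus WT ranged from -0.828 to 1.35 points. Causes were not tested.

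Deviations of same-numbered libraries from their group means correlated at -0.287 to 0.318. The correlations were negative for every pair of KO1 with WT and positive for every pair of KO2 with WT. Differently numbered libraries were not compared, so whether replicate numbers pair the libraries was not tested. With the replicate block, 7694, 7339 and 3135 genes changed in KO1 against WT, KO2 against WT and KO2 against KO1, against 7923, 7596 and 3596 without it. Of the genes called between KO2 and WT, 58.9% were higher, 50.8% after quantile normalization and 52.9% after median centring. Between KO2 and KO1, 59.7% were higher, 49.0% after quantile normalization and 47.9% after median centring. The unknown depth gives no counting interval.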
